A study of Rattus norvegicus with 6 samples.

Results

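The genes described here load transmitter into synaptic vesicles or make, recapture and break down acetylcholine. They are 3 vesicular glutamate transporters (Slc17a6, Slc17a7, Slc17a8), 2 vesicular monoamine transporters (Slc18a1, Slc18a2), the vesicular acetylcholine transporter (Slc18a3), the acetylcholine-synthesising enzyme choline acetyltransferase (Chat), the choline transporter of cholinergic terminals (Slc5a7) and acetylcholinesterase (Ache). The set was chosen by the measured values of Slc18a3, which were higher after Ncoa3 silencing, so the difference of Slc18a3 between the groups is given as a description without a test. The rule names no value of the other genes, although earlier results of these data were known when it was written. Each of 8 of the 9 genes had 1 probe set with a single gene symbol, among 18166 named genes, and Ache is not analysed here.

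The data are 6 Affymetrix arrays of hippocampal neurons prepared from rat embryos of day 18. All cultures were grown with 10 µM 5-fluorodeoxyuridine (FUDR), a nucleoside analogue that holds back dividing cells. An adeno-associated virus (AAV, 1800000 infectious units in each ml) was added after 4 days in culture, and the cells were harvested after 14 days. The virus carried an shRNA against Ncoa3, a coactivator of nuclear receptors, on 3 arrays and a control shRNA on 3 arrays, with 1 of each in experiments 1, 2 and 3. All p-values measure the spread between these arrays. Where a deposited value repeats within a group, as described below, they do not fully measure variation between cultures. The labels read here give neither the promoter of the hairpins nor the share of neurons infected.

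A vesicular transporter uses the proton gradient across the vesicle membrane to concentrate its transmitter, so the transporters a neuron makes set which transmitter it can release. Hippocampal principal neurons are glutamatergic and rely mainly on Slc17a7 (VGLUT1), with Slc17a6 (VGLUT2) common in early development and in subcortical inputs. Most acetylcholine in the hippocampus is released by axons that arrive from the septum, whose cell bodies are not in the dissected tissue, and monoamines come from brainstem axons. The gene of the acetylcholine transporter has an unusual position. It lies inside the Chat gene on the same strand, and the pair is called the cholinergic gene locus.

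In the RefSeq gene table (assembly GRCr8), Slc18a3 lay wholly within the span of Chat, and the start of Chat was 602 bases upstream of the start of Slc18a3. Both genes are on the minus strand of chromosome 16. The 250 bases before each start are shown because these 2 genes had the largest positive differences of the set. Capitals mark the GC box GGGCGG and the cyclic AMP response element half-site TGACG on either strand. No 2 marked motifs overlap in these windows.
Slc18a3, chr16:7722815-7723064, minus strand: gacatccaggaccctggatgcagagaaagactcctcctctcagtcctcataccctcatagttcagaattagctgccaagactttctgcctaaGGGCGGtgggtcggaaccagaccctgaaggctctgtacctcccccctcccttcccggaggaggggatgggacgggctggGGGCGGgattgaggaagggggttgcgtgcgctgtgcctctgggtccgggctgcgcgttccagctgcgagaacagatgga
Chat, chr16:7723417-7723666, minus strand: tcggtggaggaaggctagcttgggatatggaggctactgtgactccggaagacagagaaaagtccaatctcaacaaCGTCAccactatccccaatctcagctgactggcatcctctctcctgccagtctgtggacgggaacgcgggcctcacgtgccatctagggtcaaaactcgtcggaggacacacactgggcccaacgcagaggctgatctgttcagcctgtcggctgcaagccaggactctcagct

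The Slc18a3 window held 2 GC boxes and 0 cyclic AMP half-sites, while the Chat window held 0 and 1. At least 1 GC box was present in 30.5% of all 33469 windows of the same length and at least 2 in 14.8%, and 18.2% held a cyclic AMP half-site. The windows of Slc18a3 and Chat were 61.6% and 57.2% G or C, against a median of 51.2% over all windows, and each held 11 CG pairs. The half-site AGGTCA, which many nuclear receptors bind, occurred on neither strand in either window. Among the 8 genes of the set with a window in the table (all but Slc18a1), it occurred once each in Slc17a8 and Slc5a7, and 14.1% of all windows held it. A pair of such half-sites facing each other across 3 bases was found in none of the 8 and in 3 of all windows. These are matches of letters in a window and not measured binding sites.

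A pair of features of the deposited log2 signals bears on every comparison below. The medians of the arrays were 6.81 to 6.97 with Ncoa3 shRNA and 7.08 to 7.25 with control shRNA, and the median difference over all genes was -0.25. Differences are therefore given after quantile normalization, which gives all arrays the same distribution, unless called deposited. Arrays of the same group also held identical values at 8680 to 13979 of 36685 probe sets, against 0 to 2 between groups. Of the 8 genes here, 7 had a value repeated within a group, Slc18a3 being the exception, and for those the spread between replicates may be too small. How such repeats arose is not given, and any processing shared by the arrays of a group cannot be told apart from the shRNA. The targeted gene, Ncoa3, had quantile-normalized signals of 7.60, 7.60 and 7.45 with Ncoa3 shRNA, against 8.63, 8.72 and 8.22 with control shRNA. Its difference was -0.97 ± 0.142 (SE, n = 3 per group).

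Slc18a3, which fills vesicles with acetylcholine, was higher with Ncoa3 shRNA in each experiment. Its deposited signal (probe set 17710214) was 8.74, 9.03 and 9.11 with Ncoa3 shRNA in experiments 1 to 3, against 8.04, 8.45 and 8.61 with control shRNA. The groups did not overlap, and experiment 1 was the lowest in both. After quantile normalization the means were 9.11 ± 0.235 with Ncoa3 shRNA and 8.24 ± 0.296 with control shRNA (SD, n = 3 each), a difference of 0.87 ± 0.184 (SE) or 1.83-fold. The difference was 0.94, 0.86 and 0.82 in the 3 experiments, a narrower range than that of the signal itself within either group. Only 35 of the 18166 genes had a larger positive difference, and 0 of the 9083 genes brighter than the median gene did. Because the set was chosen by this rise, that rank is a description and no support for it. Under the 4 scalings tried, the deposited one included, the difference ran from 0.59 to 0.88. It ran from 0.70 to 1.01 when 1 array or 1 experiment was left out.

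**Figure D1:**
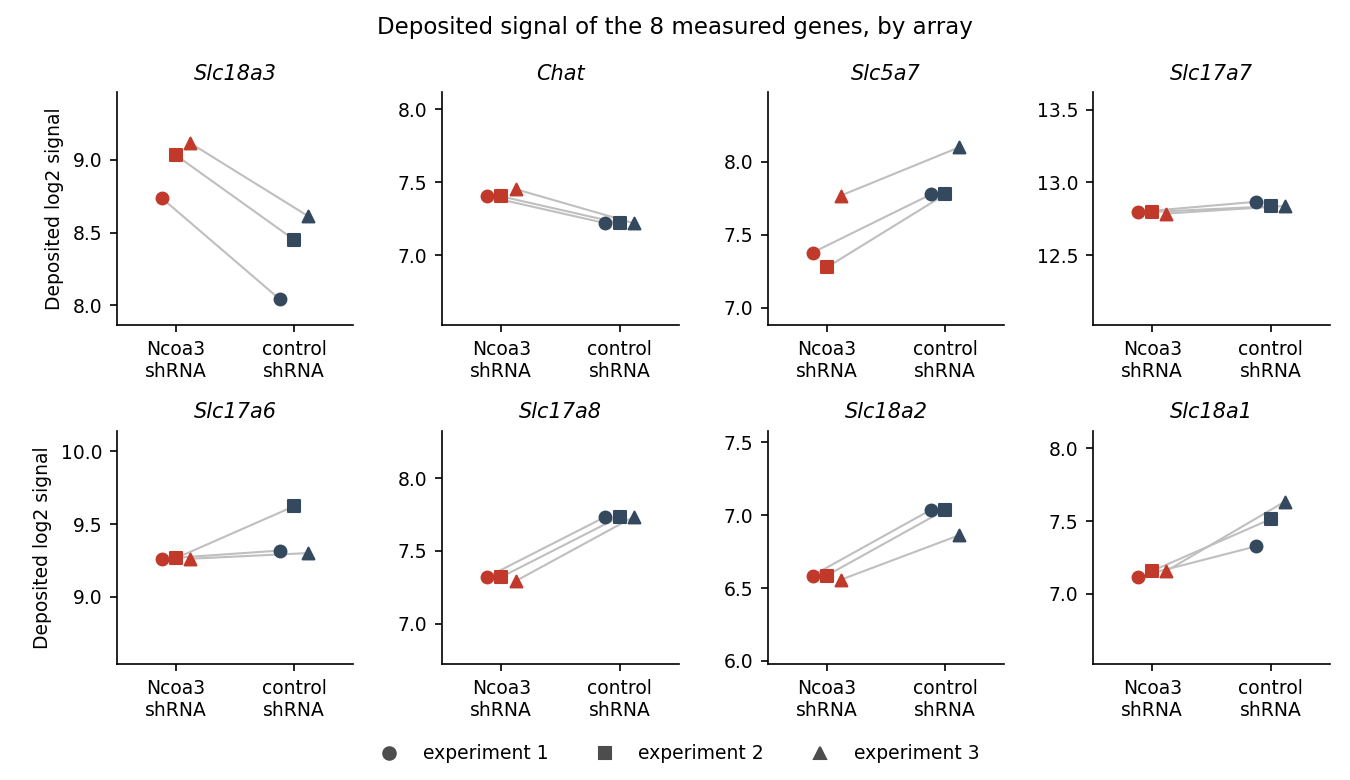
Deposited log2 signal of the 8 measured genes, with Ncoa3 shRNA (red) left of control shRNA (dark blue). Each point is 1 array, grey lines join the arrays of an experiment, and every panel spans 1.6 log2 units. Slc18a3 and Chat are the genes whose red points lie above the blue ones.

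Chat, which makes acetylcholine from choline and acetyl-CoA, also rose. Its deposited signal (probe set 17710195) was 7.40, 7.40 and 7.45 with Ncoa3 shRNA, against 7.22 on every control shRNA array. The groups did not overlap, but the control value was one repeated number, as was that of Ncoa3 shRNA in experiments 1 and 2. After quantile normalization Chat averaged 7.56 ± 0.0369 with Ncoa3 shRNA and 7.08 ± 0.0906 with control shRNA (SD, n = 3 each). The difference was 0.48 ± 0.0668 (SE), 1.40-fold, with limma's adjusted p = 0.00623, and it was 0.46, 0.44 and 0.54 by experiment. Because the deposited values repeat, the spread of the control arrays came from the normalization alone, and this p does not measure variation between cultures. Chat was positive under all 4 scalings, from 0.20 in the deposited values to 0.48, and passed limma's test in each. Without experiment 1 or experiment 2 the call was lost (adjusted p = 0.175 and 0.150), with differences of 0.49 in both fits. Those fits called 223 and 0 of all 18166 genes.

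Of the 7 genes other than Slc18a3, 1 rose, 0 fell and 6 did not pass, where 10.5% of all genes rose, 9.04% fell and 19.5% passed in either direction. The median difference of the 7 was -0.065, against 0.0084 over all genes. Once the 2 arrays of an experiment were paired as a block, Chat rose and Slc17a8 fell, where 20.8% of all genes rose and 18.6% fell, 39.3% in all. In the deposited values 1 of the 7 passed as higher and 4 as lower, where 3.97% and 43.3% of genes did, 47.2% in all. Pairing those deposited values gave 1 higher and 5 lower, where 4.33% and 55.9% of genes passed, 60.2% in all.

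Groups that did not overlap were found for 3 of the 7 after quantile normalization, Chat and Slc17a7 being higher and Slc17a8 lower. Over all genes 40.5% did not overlap, 21.5% higher and 19% lower. In the deposited values none of the 7 overlapped, with 1 higher and 6 lower, where 61% of genes did not overlap, 5.36% higher and 55.6% lower. The direction was the same in all 3 experiments for 5 of the 7, with 2 positive and 3 negative, against 70.4% of all genes, 36.8% positive and 33.6% negative.

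**Figure D2:**
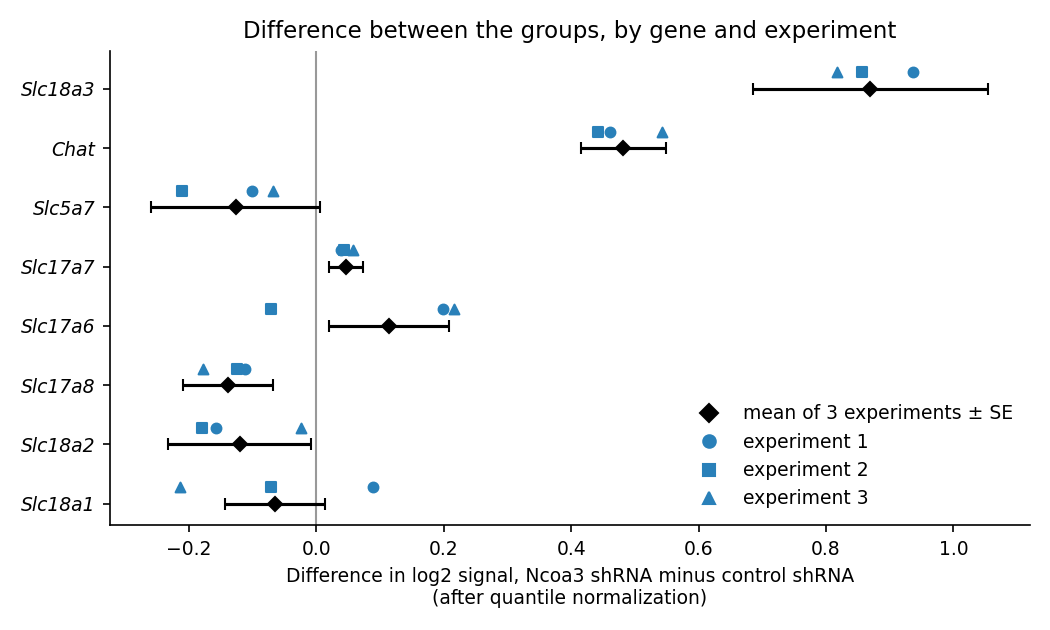
Difference in quantile-normalized log2 signal (x axis, Ncoa3 shRNA minus control shRNA) for the 8 genes. Black diamonds are means with the SE of limma's fit, and blue symbols are the 3 experiments. Slc18a3 and Chat lie to the right of 0.4 in each experiment, and the other genes lie between -0.21 and 0.22.

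Slc5a7, which recaptures choline for a new round of acetylcholine synthesis, did not pass the test and its difference was negative. Its deposited signal (probe set 17856878) was 7.38, 7.28 and 7.77 with Ncoa3 shRNA, against 7.78, 7.78 and 8.10 with control shRNA. The highest Ncoa3 shRNA array lay just below the lowest control arrays, and experiment 3 was the highest in both. After quantile normalization the groups overlapped, at 7.62 ± 0.211 with Ncoa3 shRNA and 7.75 ± 0.154 with control shRNA (SD, n = 3 each). The difference was -0.13 ± 0.132 (SE; limma's adjusted p = 0.558), and -0.10, -0.21 and -0.069 by experiment. With the experiment as a block, Slc5a7 passed as lower in the deposited values (limma's adjusted p = 0.0130) but not after quantile normalization (0.0795).

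Among the vesicular glutamate transporters none passed limma's test after quantile normalization. Slc17a7, the main transporter of hippocampal principal neurons, was brighter than 99.4% of genes. Its deposited signal (probe set 17616231) was 12.80, 12.80 and 12.79 with Ncoa3 shRNA, against 12.87, 12.84 and 12.84 with control shRNA. All control arrays were above all Ncoa3 shRNA arrays, by a small margin. That deposited difference, -0.053, passed limma's test as lower (adjusted p = 0.0141), whereas after quantile normalization the sign turned to 0.047 ± 0.0262 (SE; adjusted p = 0.272). The direction for Slc17a7 therefore depended on the scaling.

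Slc17a6, the transporter of developing and many subcortical glutamatergic neurons (probe set 17616873), had deposited signals of 9.26, 9.27 and 9.26 with Ncoa3 shRNA, against 9.32, 9.62 and 9.30 with control shRNA. Control experiment 2 stood apart from the other 5 arrays. The deposited difference of -0.15 became 0.11 ± 0.0944 (SE; limma's adjusted p = 0.456) after quantile normalization, with 0.20, -0.071 and 0.22 by experiment. Neither its sign nor its experiments were uniform.

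Slc17a8 encodes VGLUT3, which is found in scattered interneurons and in cholinergic and serotonergic neurons that also release glutamate. Its deposited signal (probe set 17835045) was 7.32, 7.32 and 7.29 with Ncoa3 shRNA, against 7.73 on all 3 control arrays. The groups did not overlap, and both rest largely on repeated values. After quantile normalization the difference was -0.14 ± 0.0709 (SE; limma's adjusted p = 0.231), and -0.11, -0.13 and -0.18 by experiment. It passed when experiments were paired (adjusted p = 0.0297), with cyclic loess scaling (0.0378) and in the deposited values, where the difference was -0.42 (4.08e-06). Slc17a8 was negative in all 18 fits made, of which 5 passed the test. Because its deposited control value was one repeated number, these p-values do not measure variation between control cultures.

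**Figure D3:**
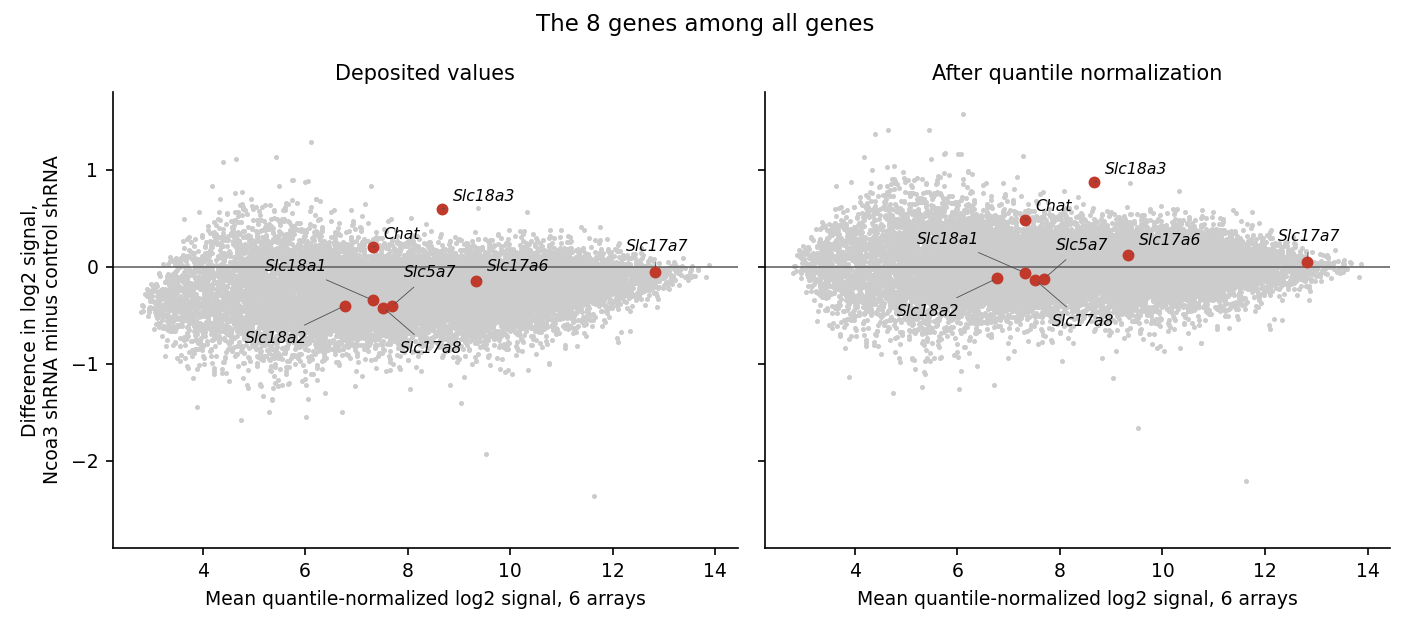
Difference between the groups (y axis, log2 signal, Ncoa3 shRNA minus control shRNA) against mean signal (x axis) for all 18166 genes in grey and the 8 genes in red, with deposited values on the left and quantile-normalized values on the right. Most grey points lie below 0 on the left and are centred on 0 on the right, and Slc18a3 stands near the upper edge of both.

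The vesicular monoamine transporters did not pass either. Slc18a2 (VMAT2), the form of monoaminergic neurons, had deposited signals of 6.59, 6.59 and 6.56 on probe set 17626824 with Ncoa3 shRNA, against 7.04, 7.04 and 6.86 with control shRNA. The groups did not overlap there. After quantile normalization they did, and the difference was -0.12 ± 0.112 (SE; limma's adjusted p = 0.511), against -0.40 in the deposited values (0.00390). Slc18a1 (VMAT1), the form of endocrine cells such as those of the adrenal medulla, had 7.12, 7.16 and 7.16 on probe set 17707369 with Ncoa3 shRNA, against 7.33, 7.51 and 7.63 with control shRNA. Its difference was -0.065 ± 0.0792 (SE; adjusted p = 0.622), with experiments on both sides of 0 (0.090, -0.071 and -0.21), and -0.35 in the deposited values (0.0270). For Slc18a2 the call also appeared after quantile normalization without experiment 3 (-0.17, limma's adjusted p = 0.00443). For Slc18a1 that fit gave 0.0091 (0.932). The same fit called 8354 of all 18166 genes. Without experiment 3 the deposited Slc18a2 value did not vary within either group. The spread behind the p of Slc18a2 in that fit thus came from the normalization alone, and it does not measure variation between cultures.

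Signals of different probe sets cannot be ranked as amounts of RNA, but their place on the array scale says how close each is to dim signal. Olfactory and vomeronasal receptor genes, which neurons of the brain seldom express, had a median signal of 4.82 over 1344 genes, and the median of all genes was 7.89. Slc17a7, Slc17a6 and Slc18a3 were brighter than the median gene, at percentiles 99.4, 70.5 and 61.2 of all genes. The other 5 were dimmer than the median gene, from percentile 47.1 for Slc5a7 to 31.2 for Slc18a2. All 8 were brighter than at least 92.6% of the receptor genes. A detection call was not part of the values used here.

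The comparison among experiments lies within the groups and did not enter the choice of the set, so it could be tested for Slc18a3 as well. Slc18a3 averaged 8.38, 8.74 and 8.90 over the 2 arrays of experiments 1, 2 and 3, a range of 0.52 that exceeded that of 90.9% of genes. Slc5a7 averaged 7.61, 7.56 and 7.89, a range of 0.33. Both passed limma's moderated F test with the shRNA as a term (adjusted p = 0.0413 and 0.0484), as did 18.8% of all genes. Of the other 6 genes, Slc18a2 was nearest at 0.0574, and Slc17a7 had the smallest range, 0.017 (0.791). In the deposited values, where 1.91% of genes passed, neither Slc18a3 (0.108) nor Slc5a7 (0.105) did. Deposited values repeated between experiments for several of these genes, among them Chat and Slc17a8. In experiments 1 and 2 they also repeated for Slc18a2 in both groups and for Slc5a7 with control shRNA. Where deposited values repeat, their variation after quantile normalization comes from the normalization itself. The calls for Slc18a3 and Slc5a7 were also lost with cyclic loess scaling (0.0730 and 0.0810). For Slc18a3 the SE of the shRNA difference was 0.0395 with the block, against 0.184 without it.

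**Figure D4:**
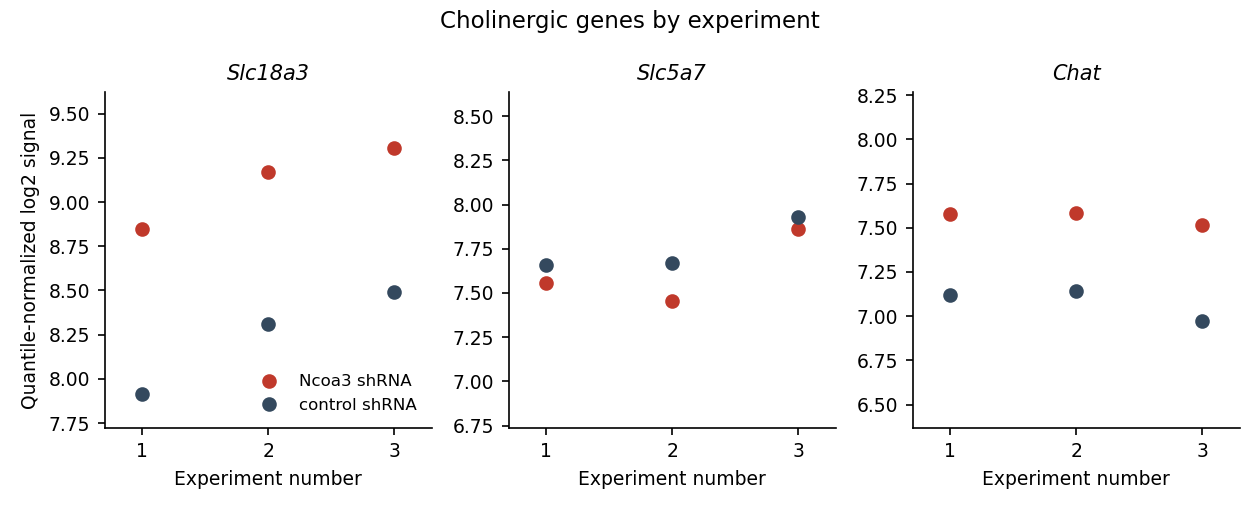
Quantile-normalized log2 signal (y axis) of Slc18a3, Slc5a7 and Chat by experiment number (x axis), with Ncoa3 shRNA in red and control shRNA in dark blue. Each point is 1 array and each panel spans 1.9 log2 units. For Slc18a3 the red point lies above the blue point by 0.94, 0.86 and 0.82, and for Slc5a7 experiment 3 is highest in both groups.

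Patterns over the 6 arrays, each gene centred on its own mean, were compared with that of Slc18a3. Among the 9083 genes brighter than the median gene, the nearest were Dcn, Gys1, Dusp4, Abhd1 and Etv5. Dimmer genes, Chat included, were left out. The root mean square distance from Slc18a3 was 0.189 for Dcn, which encodes the matrix proteoglycan decorin, 0.203 for Gys1, a glycogen synthase, and 0.204 for Dusp4, a phosphatase of MAP kinases. It was 0.207 for Abhd1 and 0.217 for Etv5, a transcription factor of the ETS family. Their differences were 0.46 to 0.57, smaller than that of Slc18a3. For Chat the 3 nearest of these brighter genes were Pex14, a peroxisome import protein, at 0.0162, Pskh1 at 0.0388 and Grhpr at 0.0397. Their differences were 0.43 to 0.48. With 6 arrays in 2 groups, a gene with a like difference between the groups is near by construction, and these genes are named as a description.

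Other genes around the cholinergic locus were read from the same gene table. Within 200 kb of the start of Slc18a3, 5 genes besides it were measured, Chat included. Ercc6, a DNA repair factor whose start lies 52445 bases away, stood at -0.27 (limma's adjusted p = 0.222), C16h10orf53 at 0.073 (0.566) and Ogdhl at 0.076 (0.799). Drgx, a homeobox gene of sensory neurons 138343 bases away, rose by 0.25 (0.0398). That call was lost in 7 of 9 fits with 1 array or experiment left out. In the deposited values its difference turned to -0.028 and passed as lower (limma's adjusted p = 0.00934).

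The list counts that follow are read against the 19.5% of all genes that passed (10.5% higher and 9.04% lower), against 20.8% higher and 18.6% lower with the block, and against 3.97% higher and 43.3% lower in the deposited values. Across genes that supply, break down or anchor acetylcholine or choline, 0 of 16 measured rose and 1 fell (6.25%), with a median of -0.0025. The block gave 2 rises and 2 falls, and the deposited values 0 and 3. The one that fell was Ric3, a chaperone of nicotinic receptors, at -0.41 ± 0.106 (SE; limma's adjusted p = 0.0442). Bche, the butyrylcholinesterase gene, stood at -0.014 (0.983), and Colq and Prima1, which anchor acetylcholinesterase, at 0.033 (0.770) and -0.084 (0.796). Of 12 measured transcription factors and trophic receptors of cholinergic neurons, 0 passed, and 8 had positive differences, with a median of 0.18. The balance of these 12 turned with the scaling: the block gave 5 rises and 0 falls, whereas the deposited values gave 0 rises and 4 falls, with a median of -0.099. Lhx8, a factor of forebrain cholinergic neurons, stood at 0.16 (0.745), Isl1 at -0.044 (0.895), Nkx2-1 at 0.33 (0.0857, and 0.00766 with the block), and Ngfr, the low-affinity neurotrophin receptor, at 0.27 (0.272, and 0.0466 with the block).

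Genes that make, take up or break down glutamate included 3 that rose and 0 that fell of 15 measured (20%, near the share of all genes), with a median of -0.037. The block gave 3 rises and 2 falls, and the deposited values 1 and 2. Got2, the mitochondrial aspartate aminotransferase, was at 10.49 with Ncoa3 shRNA and 9.95 with control shRNA, a rise of 0.54 ± 0.0665 (SE; limma's adjusted p = 0.00430). Slc1a7, a glutamate transporter best known from the retina, rose by 0.46 (0.00772), and Gls2, a glutaminase, by 0.33 (0.0222). The astrocytic glutamate transporters Slc1a2 and Slc1a3 stood at -0.29 (0.359, and 0.0235 with the block) and -0.073 (0.814). The other measured Slc17 and Slc18 genes gave 0 calls of 6, but 2 rises and 1 fall with the block, and 0 and 3 in the deposited values. Slc18b1, a vesicular polyamine transporter, was the highest of them at 0.43 (0.0737, and 0.0160 with the block). Slc17a3 stood at 0.31 (0.0847, and 0.0376 with the block) and Slc17a2 at -0.18 (0.0665, and 0.0396 with the block).

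Of 18 monoamine genes 1 rose and 0 fell (5.56%), with a median of -0.0037, against 4 and 3 with the block and 1 and 7 in the deposited values. Hdc, which makes histamine, rose by 0.48 (limma's adjusted p = 0.00714), and its deposited value did not vary within either group. Th, the rate-limiting enzyme of dopamine and noradrenaline synthesis, had a larger difference, 0.60, that did not pass (0.108, and 0.00660 with the block), and was chosen after its values were seen. Of 11 monoaminergic transcription factors 2 rose and 0 fell, En2 by 0.49 (0.0420) and Lmx1b by 0.29 (0.0172), against 4 and 1 with the block and 0 and 7 in the deposited values. The vesicular proton ATPase, whose pumping powers all these transporters, had 0 rises and 1 fall among 22 measured subunits (4.55%), with a median of -0.0042, against 4 and 2 with the block and 0 and 10 in the deposited values. The subunit that fell, Atp6v1g3, was at -0.38 (0.0174), likewise did not vary within either group as deposited and was dimmer than the median gene.

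For comparison, Slc32a1, the vesicular transporter of GABA and glycine, rose by 0.50 (limma's adjusted p = 0.0122). Its quantile-normalized mean was 11.10 with Ncoa3 shRNA and 10.60 with control shRNA. Gad2, a GABA-synthesising enzyme, fell by 0.42 (0.0349) and Gad1 stood at 0.0057 (0.977), so of 7 such genes 1 rose and 1 fell, against 1 and 2 both with the block and in the deposited values. With 1 array or experiment left out, the call of Slc32a1 was lost in 5 of 9 fits and that of Gad2 in 7. Gad2 did not pass with array medians subtracted either (-0.29, limma's adjusted p = 0.250). Of 14 other vesicle transporters and vesicle proteins 0 rose and 2 fell, and Slc10a4, an orphan transporter of cholinergic and monoaminergic vesicles, stood at 0.099 (0.709). The block gave 1 rise and 3 falls among these 14, and the deposited values 0 and 5. Those that fell were Vamp1, a SNARE of the vesicle, at -0.69 (0.0227) and Clcn4, a chloride-proton exchanger, at -0.58 (0.00934).

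**Figure D5:**
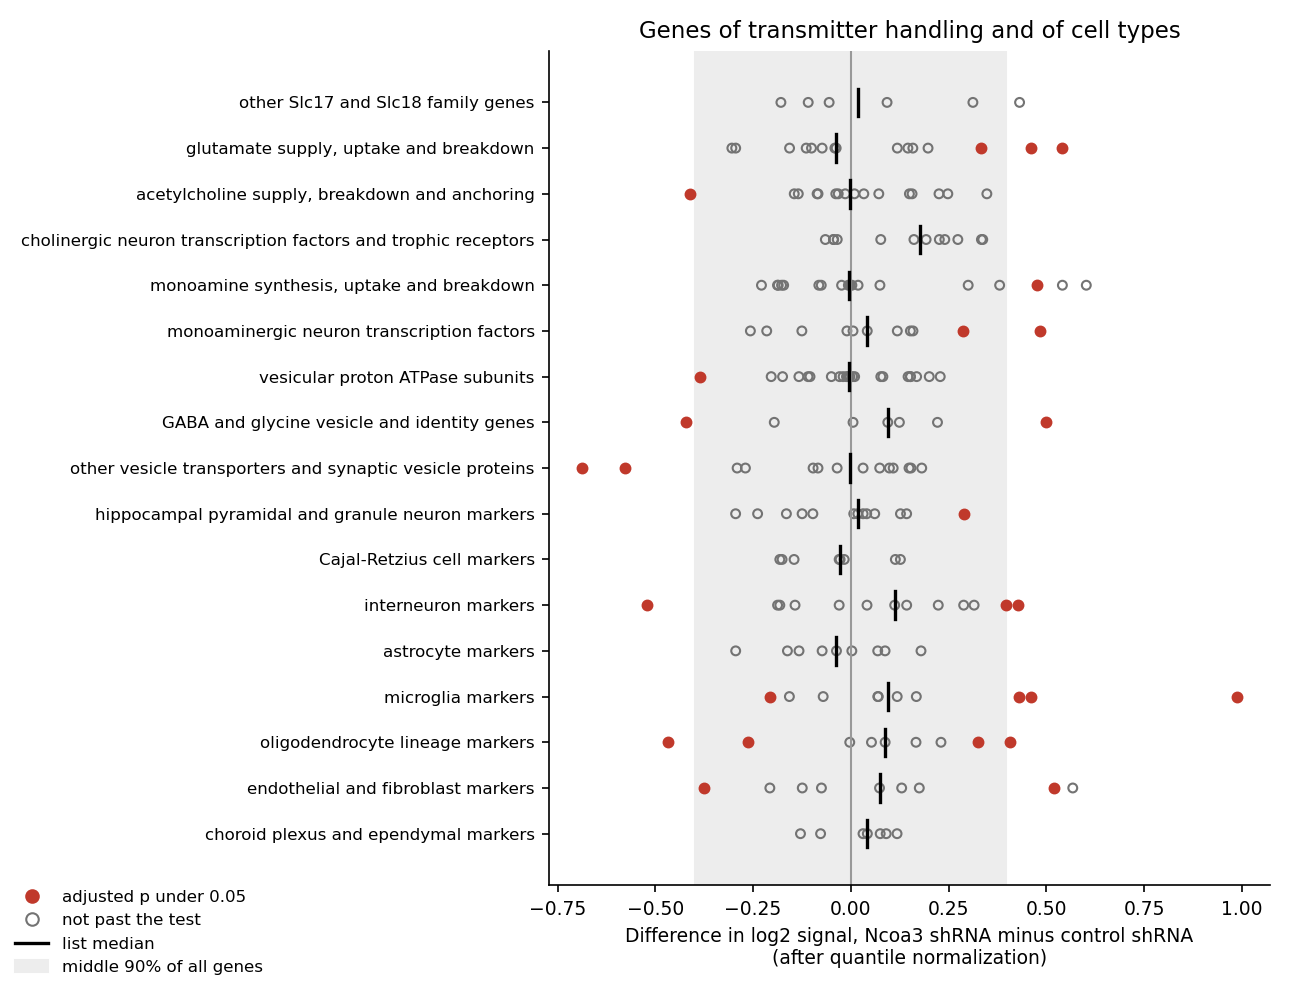
Difference in quantile-normalized log2 signal (x axis, Ncoa3 shRNA minus control shRNA) of each measured gene in 17 lists (rows). Filled red points are genes called by limma (threshold 0.05), open points are the others, black ticks are list medians and the grey band holds the middle 90% of all genes, from -0.40 to 0.40. The list medians lie near 0, the highest being 0.18 for the cholinergic neuron factors.

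Markers of the cultured cells were read by their place on the array scale, which is no measure of RNA amount between probe sets. All 13 measured markers of pyramidal and granule neurons were brighter than the median gene, with Tbr1 at 11.83 and 11.79 and Camk2b at 12.43 and 12.37 (Ncoa3 shRNA and control shRNA). Of these 13, 1 rose (Wfs1, by 0.29, adjusted p = 0.0395, lost with the block at 0.0553) and 0 fell, against 1 and 1 with the block and 0 and 2 in the deposited values. Of 9 astrocyte markers 7 were brighter than the median gene as well, and of 10 microglia markers 0 were. The levels are averages over whole cultures, so more cells of a type and more RNA per cell cannot be told apart.

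Markers of other cell types gave calls in both directions. Of 10 microglia markers 3 rose and 1 fell: Cx3cr1 rose by 0.99 (limma's adjusted p = 0.0205), C1qb by 0.46 (0.0111) and Aif1 by 0.43 (0.0113), and Ptprc fell by 0.21 (0.0462). The deposited values gave the opposite balance, 1 rise and 3 falls with a median of -0.19, and neither Cx3cr1 (0.109) nor C1qb (0.260) passed there. The block gave 4 and 2. Only 4 of these 10 markers were brighter than 90% of the olfactory and vomeronasal receptor genes, so most lay in the range of dim signal. The summed linear signal of the 10 was 906 to 1044 with Ncoa3 shRNA and 840 to 853 with control shRNA. These sums did not overlap, as for 40.5% of single genes. Among 9 endothelial and fibroblast markers 1 rose and 1 fell. Dcn, nearest in pattern to Slc18a3 of the genes brighter than the median gene, rose by 0.52 (0.0385). Flt1 stood at -0.37 (0.0176). Whether deposited values repeat within a group is not given here for the markers called in this paragraph. The sums of the 9 markers were 3099 to 3778 with Ncoa3 shRNA and 2379 to 2918 with control shRNA. These did not overlap, but without Dcn, left out after its values were seen, they did, at 1145 to 1507 with Ncoa3 shRNA and 1138 to 1293 with control shRNA. The call of Dcn was lost in 8 of 9 fits with 1 array or experiment left out, in the deposited values (0.0948) and with cyclic loess (0.0506). This list gave 3 rises and 3 falls with the block and 0 and 6 in the deposited values. For 9 oligodendrocyte lineage markers 2 rose and 2 fell, namely Cnp (0.41, adjusted p = 0.0301), Pdgfra (0.32, 0.0252), Sox10 (-0.47, 0.00500) and Mog (-0.26, 0.0228). The block gave 3 rises and 2 falls, and the deposited values 1 and 4. Their sums overlapped, at 2806 to 3174 with Ncoa3 shRNA and 2648 to 2890 with control shRNA. The lowest log2 signal of any probe set was 2.29, so a signal above 0 does not show that a marker was expressed. The part of these cells in the difference of Slc18a3 or Chat was not tested.

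Among neuronal subclasses that carry the transporters, of 8 Cajal-Retzius markers, cells of the early cortex that use Slc17a6, 0 passed, with a median of -0.029, against 1 rise and 2 falls with the block and 0 and 5 in the deposited values. Of 13 interneuron markers 2 rose and 1 fell, Htr3a by 0.43 (limma's adjusted p = 0.00990), Vip by 0.40 (0.0145) and Pvalb at -0.52 (0.00372), against 2 and 2 with the block and 2 and 3 in the deposited values. Of 9 astrocyte markers and of 7 choroid plexus and ependymal markers 0 passed, with medians of -0.037 and 0.042. The block gave 0 rises and 1 fall for the astrocyte markers and 1 and 1 for the others, and the deposited values gave 0 and 2 and 0 and 6. The summed signal of the cholinergic neuron factors was 3131 to 3663 with Ncoa3 shRNA and 2707 to 3217 with control shRNA, so the groups overlapped.

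Of the 26 listed genes that passed, 16 rose and 10 fell. All 26 calls were lost without experiment 1, where 223 of the 18166 genes passed, and all 26 without experiment 2, where 0 did. The loss without experiment 2 was thus common to every gene. All 10 falls and 7 of the 16 rises also passed with the deposited values. There 43.3% of all genes passed as lower and 3.97% as higher, so these counts do not set falls above rises. None of the 26 changed sign under the other 3 scalings, and 25 passed with the block. With array medians subtracted 9 of the 26 calls were lost, namely Cnp, Gad2, Gls2, Htr3a, Lmx1b, Mog, Ptprc, Ric3 and Wfs1. With cyclic loess 1 was lost (Dcn), and 20 were lost when at least 1 single array was left out. The 6 that held without any single array were Clcn4, Got2, Hdc, Pvalb, Slc1a7 and Sox10. The deposited value of Hdc did not vary within either group, so leaving out 1 array does not test that call against variation between cultures. Whether deposited values repeat is not given here for the other genes of these 6.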

How the data were processed

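Values are the deposited log2 signals of the 6 arrays, made by the authors. The submitters' processing notes name Affymetrix Expression Console; the sources used here give no version, summarisation or normalization. Gene names come from GEO's platform annotation, which can be old (18511 of 36685 have 1 symbol), and the brightest probe set stood for a gene. All 6 arrays were quantile-normalized over all probe sets and compared by limma 3.58.1 under R 4.3.3 (lmFit, eBayes with trend, two-sided, Benjamini-Hochberg over 18166 genes, threshold 0.05), which was tested on simulated data. The number of arrays limits the precision. The labels tie 1 array per group to each experiment. Deviations from the group means correlated within experiments at 0.75, 0.56 and 0.80 over genes, and at -0.76 to 0.54 between experiments. The fit that pairs arrays by experiment (the block) is quoted for each member and list whose calls it alters. The members and gene lists were chosen with earlier results of these data known, and the GC box and cyclic AMP motifs after the sequences were seen. Named are all members, up to 4 genes per list past the threshold, genes within 200 kb, and the 5 and 3 nearest patterns. Patterns were sought only among genes brighter than the median gene. List genes given beside the named ones were chosen after their values were seen. Promoter windows are from RefSeq (GRCr8), found for 8 of the 9 genes.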

Additional observations from a re-analysis of the deposited data

How the results depend on the processing

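The difference of Slc18a3 was positive in all 18 fits (0.59 to 1.01). Because the set was chosen by this rise in the same arrays, that count is a description and no support for it. Chat was positive in all 18 fits, of which 16 passed limma's test. The exceptions were the fits without experiment 1 (0.49, adjusted p = 0.175) and without experiment 2 (0.49, 0.150). The deposited value of Chat did not vary between control arrays, so these fits do not test its call against variation between control cultures. Over these fits 0 to 10932 genes passed. The sign turned for Slc17a6 (-0.15) and Slc17a7 (-0.053) in the deposited values, with and without the replicate block, and for Slc18a1 without experiment 3 (0.0091; -0.14 to 0.0091 over the fits that left out an array or experiment). The cause was not tested. The number of genes past the threshold, 3548 of 18166, was 8579 with the deposited values and 1868 with array medians subtracted. It was 7147 with the replicate block and 10932 with the replicate block on deposited values. A fit over all 36685 probe sets counted probe sets, not genes, and 5938 of them passed. Leaving out 1 array or experiment gave 0 to 8354 genes. The 0 came without experiment 2, where limma gave 3071 genes at an unadjusted p under 0.05, and 223 passed without experiment 1. The 3411 genes that differed among experiments became 347 with the deposited values, 240 with cyclic loess and 1473 without a trend, and 0 to 1368 with 1 array left out. At an unadjusted p under 0.05, the 4 fits with 0 calls held 4355 to 6092 genes. No other tool was run. Among experiments, Slc18a3 passed in 4 of 11 fits and Slc5a7 in 2.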
